A study of Mus musculus with 12 samples.

Results

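The immunoglobulin heavy chains described here had a CDR3 of only 3 to 6 residues. They were chosen by length alone. In each translated sequence without a stop, the CDR3 was taken as the residues between the cysteine that ends VH and the tryptophan that opens the conserved J motif, with both of these anchors left out. Of 546610 unique translations with a located CDR3, 29055 met the rule, and they held 5399 of the 216337 distinct CDR3s. A translation counts once per library, whatever its number of reads.

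The CDR3 is the most variable loop of an antibody and lies at the centre of its antigen-binding site. In the heavy chain it is built when a VH, a D and a J segment are cut and joined, with bases trimmed from each end and others added at the joints. A short CDR3 leaves little room for the D segment, and such loops are a minor portion of the mouse repertoire.

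The B cells came from the spleens of female SLE-prone *MRL-lpr* mice aged 14 weeks, which are homozygous for the *Fas* lpr mutation, so both groups lacked normal Fas-driven cell death. Mice received control SMO (6 mice) by subcutaneous minipump, or else LFPRLR SMO (6 mice), a splice-modulating oligomer that lowers the long form of the prolactin receptor. The study used this contrast to ask whether long-form receptor signalling alters the B-cell repertoire. B cells were enriched from the spleen, and *IGH* transcripts were amplified from J558 family VH segments to Cμ, so other VH families and class-switched transcripts were outside the assay. Each library is named by its group and mouse number.

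Libraries held from 140475 to 227202 reads, except LFPRLR SMO 6, which held 627 reads and only 493 located translations. One translation there was 0.203% of the library, and a count of 0 allowed a share of up to 0.609%. A CDR3 was located in 91.6% to 95.7% of stop-free translations. The most-read translations overlapped heavily between some libraries of 1 group: of the top 50, Control SMO 4 and 8 shared 35, Control SMO 5 and 7 shared 44, and LFPRLR SMO 4 and 5 shared 36. The 12 libraries also fell into 2 sets by a base in Cμ that was read in 2 versions, with 3 libraries of each group in each set. These features are given beside several of the results that they touch, and their part in them was not tested.

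The sequences below are the most read junctions of the commonest short CDR3s of 4, 5 and 6 residues, shown so that the joint itself can be read. Capitals mark the codons of the CDR3, the lower-case bases before them end in the cysteine codon tgt, and those after them open with the tryptophan codon tgg. They were read from the deposited nucleotide tables and were not placed on a genome.
ATDY: tattattgtGCAACTGACTACtggggc
TRRF: tattactgtACAAGAAGGTTCtggggt
TRRG: tattactgtACAAGAAGGGGCtggggc
ARGA: tattattgtGCAAGAGGTGCCtggggc
ARGAY: tacttctgtGCAAGAGGGGCTTACtggggc
KRYDY: tatttctgtAAAAGATATGACTACtggggc
ARGDY: tattactgtGCAAGAGGGGACTACtggggc
AREDY: tattactgtGCAAGAGAGGACTACtggggc
TTGFAY: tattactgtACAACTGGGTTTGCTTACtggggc
ATGFAY: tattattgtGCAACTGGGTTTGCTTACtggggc
TGGFDY: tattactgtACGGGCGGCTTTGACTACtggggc

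In CDR3s of 9 or more residues, the 6 bases after the cysteine codon were most often gcaaga, in 65.8% of unique sequences, or gcaagg, in 5.99%. Both encode alanine and arginine. The commonest bases of J ahead of the tryptophan codon, each shown to let the junctions above be compared with a full J end, were as follows.
J1: ctactggtacttcgatgtc
J2: actactttgactac
J3: ctggtttgcttac
J4: tactatgctatggactac

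Set against these, the junction of ARGDY had 6 bases of the VH end, 3 bases between and 6 bases of J2. AREDY and ARWDY had the same 6, 3 and 6 bases with J2, and ARGAY had 6, 3 and 6 bases with J3. The first 6 bases of the 3 CDR3s that end in DY were identical, so ARGDY, AREDY and ARWDY differed in a single codon between VH and J. In TTGFAY 11 of 18 bases matched J3, and in ATGFAY 4 bases matched the VH end, 3 lay between and 11 matched J3. The match to the VH end ran from the first base and stopped at the first mismatch. CDR3s that start with threonine or lysine, such as TTGFAY and KRYDY, differ from both VH ends at that first base, so all their bases ahead of J were counted as lying between, even where later bases were the same.

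Short CDR3s were rare at the lower lengths and rose steeply with length. Only 13 translations had 3 residues, 1226 had 4, 11054 had 5 and 16762 had 6. Just outside the rule, 22 translations had 2 residues and 28612 had 7. The 13 translations of 3 residues lay in 7 libraries, with at most 3 in any library, and 10 of them were read once. Distinct CDR3s numbered 11 at 3 residues, 210 at 4, 1759 at 5 and 3419 at 6. None of the 11 CDR3s of 3 residues was found in both groups, against 6.95% of the CDR3s outside the rule. Their 13 translations left little room for overlap. The most frequent of them were ARV, seen once in each of 2 control libraries, and AAN, seen once in each of 2 LFPRLR libraries, and 3 others of the commonest 5 (AGN, ARL and AVY) were seen once in all.

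Short CDR3s made up a small, variable share of every library. In control mice they were 3.57% of translations at the lowest, 5.33% at the median and 5.91% at the highest. After LFPRLR SMO the share was 4.21% at the lowest, 6.27% at the median and 7.51% at the highest. The groups overlapped, although 4 of 6 LFPRLR libraries lay above the highest control library. The highest was LFPRLR SMO 6, with 37 short translations and a 95% Wilson interval of 5.49% to 10.2%, which covers counting error only. The medians differed by 0.935 percentage points (*p* = 0.0931 by an exact two-sided Mann–Whitney *U* test over 6 against 6 libraries). Without LFPRLR SMO 8, the lowest library of its group, the difference was 1.11 points and the exact *p* was 0.0303. This was the only 1 of 12 fits with a library left out that had a *p* under 0.05. Over the 12 fits the difference ran from 0.655 to 1.21 points, and the highest exact *p* was 0.177. Within library set 1 the median difference was 0.424 points (exact *p* = 0.7), and within set 2 it was 2.25 points (exact *p* = 0.2), where 3 against 3 libraries cannot give less than 0.1. With the overlapping pairs of libraries averaged, the difference was 0.888 points (exact *p* = 0.286).

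**Figure D1:**
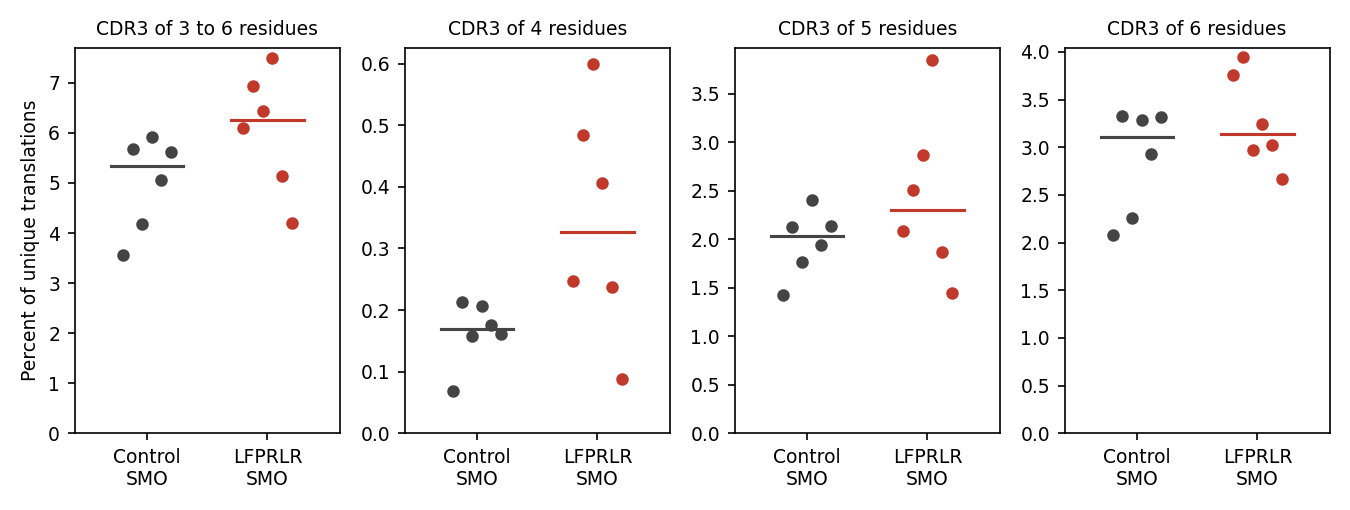
Percent of unique translations whose CDR3 had 3 to 6 residues, and 4, 5 or 6 residues alone (y axis, a separate scale from 0 in each panel), with 1 point per library and a bar at the group median (control SMO grey, LFPRLR SMO red, 6 libraries each). For 3 to 6 residues the medians were 5.33% and 6.27% and the groups overlapped, and at 4 residues 5 of 6 LFPRLR libraries lay above the highest control library.

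Weighted by reads, short CDR3s took 3.18% to 6.45% of reads in control libraries, with a median of 5.58%. In LFPRLR libraries they took 5.49% to 7.44%, with a median of 6.73%. The groups overlapped here too, with 3 of 6 LFPRLR libraries above every control library, and the difference of 1.15 points gave an exact *p* of 0.132. With each library left out in turn the difference lay between 0.655 points, without LFPRLR SMO 4, 5 or 6, and 1.65 points, without LFPRLR SMO 3, 7 or 8, and the exact *p* stayed above 0.05. Within set 1 the median difference was -0.131 points and within set 2 it was 3.41 points (exact *p* = 1 and 0.2). The LFPRLR median of set 2 was the value of LFPRLR SMO 6, 7.23%, from 41 of its 567 reads with a located CDR3. Averaging the overlapping pairs gave a difference of 1.06 points (exact *p* = 0.286).

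By single length, the CDR3s of 4 residues had the smallest *p*. They made up 0.0689% to 0.214% of control translations (median 0.169%) and 0.0880% to 0.599% of LFPRLR translations (median 0.326%). All LFPRLR libraries but LFPRLR SMO 8 lay above the highest control library, and the exact *p* was 0.0411. The *p* adjusted by Benjamini-Hochberg over all 22 lengths tested was 0.905. No length passed the adjusted threshold of 0.05 (0% of lengths called), and 1 of 22 (4.55%) had an unadjusted *p* under 0.05. Leaving out each library in turn, 1 of 12 fits kept an unadjusted *p* under 0.05, that without LFPRLR SMO 8. The median difference of 0.158 percentage points fell to 0.0782 without LFPRLR SMO 4, 5 or 6 and to 0.0754 with the paired libraries averaged, and it was 0.237 without LFPRLR SMO 3, 7 or 8. Within set 1 the difference was 0.0409 points and within set 2 it was 0.248 points. The LFPRLR median of set 2 was the value of LFPRLR SMO 6, 0.406%, which came from 2 translations. CDR3s of 5 residues were 2.03% of control and 2.30% of LFPRLR translations at the median (exact *p* = 0.394), and those of 6 residues were 3.11% and 3.13% (exact *p* = 0.485). The 13 translations of 3 residues gave an exact *p* of 0.167.

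A single family of CDR3s that begin with threonine and a pair of arginines held many of the translations of 4 residues. This family, chosen after its values were seen, held 7 CDR3s and 254 of the 1226 translations of 4 residues. It supplied 86 translations in LFPRLR SMO 4 and 125 in LFPRLR SMO 5, the pair that shared 36 of their 50 most-read translations. It supplied 18 in LFPRLR SMO 7, 15 in LFPRLR SMO 3, none in LFPRLR SMO 6 and 8, and between 0 and 4 in each control library. In LFPRLR SMO 5 it was 62.2% of all CDR3s of 4 residues. Without the family the medians at 4 residues were 0.165% and 0.224% (exact *p* = 0.0649). The junctions of TRRF and TRRG printed above were identical up to the last codon of the CDR3. TRRF was joined to J4 in 87.8% of its 98 translations and TRRG to J3 in 85.2% of its 54, whereas 65.3% of the 49 translations of TRRV had a J motif that matched none of the 4 J segments. The other named CDR3s of 4 residues were ATDY, joined to J2 in 83.6% of 110 translations and found in all 12 libraries, and ARGA, found in 5 control and 3 LFPRLR libraries.

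At 5 residues the commonest CDR3s were ARGAY, KRYDY, ARGDY, AREDY and ARWDY, ranked by their mean share over the 12 libraries, and at 6 residues they were TTGFAY, ATGFAY, ARGFAY, TGGFDY and ARRFAY. All 10 end in DY, mostly with J2, or in AY, mostly with J3. Without LFPRLR SMO 6, in which 1 translation weighs most, the same 5 stayed in front at 3, 4 and 5 residues, but ARGFAY, TGGFDY and ARRFAY gave way to ARGMDY, ARGGDY and ARPFAY. TTGFAY was the most frequent short CDR3, with 432 translations and 3236 reads in 12 of 12 libraries. Its translations numbered 13, 39, 1, 53, 28 and 31 in Control SMO 3, 4, 5, 7, 8 and 9, and 59, 38, 1, 2, 89 and 78 in LFPRLR SMO 3 to 8. As a share of translations the medians were 0.0473% and 0.135%, the groups overlapped, and the exact *p* was 0.132. Its junction was written in 13 different ways at the base level, and the coding printed above was found in 12 libraries.

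The same short CDR3 was often made from different bases. ARGDY had 25 codings in 11 libraries, ARGAY had 20 in 12, and ARGFAY had 18 in 12. By contrast, KRYDY had 4 codings, 2331 of whose 2391 reads were a single one, and TRRF had 2. Several abundant short CDR3s lay mainly in 1 pair of libraries. TGGFDY had 46 and 77 translations in Control SMO 4 and 8 and at most 4 in any other library, and it had the most reads of any short CDR3 in both, at 8.53% and 11.9% of their reads in short CDR3s. KRYDY led LFPRLR SMO 4 and 5, with 462 and 1857 reads, and took 16.7% of the reads in short CDR3s in the latter. ATYEAY was found in Control SMO 3 alone. The remaining leaders were ARRPY in Control SMO 5, KNWGY in Control SMO 9, APNFDV in LFPRLR SMO 3 TTGFAY in Control SMO 7 and LFPRLR SMO 7 and 8, and TGGFDY, with 3 reads, in LFPRLR SMO 6.

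Of the short CDR3s, 270 were found in at least 6 libraries and could be compared between groups, out of 1963 CDR3s of any length. No CDR3 of any length had an adjusted *p* under 0.05 by the exact test (0% called), and the smallest adjusted *p* among the short ones was 0.250. With an unadjusted *p* under 0.05 there were 30 of the 270 short CDR3s (11.1%), against 11.5% of all 1963. Of these 30, 8 were higher and 22 lower after LFPRLR SMO. Of the 226 CDR3s of any length with such a *p*, 32 were higher and 194 lower (1.63% and 9.88% of all 1963). Lower CDR3s were thus the more frequent at all lengths, and not in short CDR3s alone. A CDR3 not seen among the 493 located translations of LFPRLR SMO 6 counted as 0% there. Without that library, 28 short CDR3s and 212 of any length had an unadjusted *p* under 0.05. Its part in the direction was not tested. The median difference was -0.000895 percentage points over the short CDR3s and -0.000885 over all. On reads, edgeR's quasi-likelihood test called 30 of the 270 short CDR3s at an adjusted *p* under 0.05 (17 higher, 13 lower). Over all CDR3s it called 16.8%, with 8.81% higher and 8% lower. The short CDR3s that it called included KRYDY, with 0 to 4 reads in every control library, and TRRF, with 0 to 4, both of which had most of their reads in LFPRLR SMO 4 and 5.

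AREDY had the smallest *p* of the named short CDR3s. It formed 0.0103% to 0.0206% of control translations (median 0.0138%) and 0.0207% to 0.203% of LFPRLR translations (median 0.0742%). These groups did not overlap, although the lowest LFPRLR library and the highest control library nearly touched. AREDY had 7, 6, 6, 7, 9 and 7 translations in Control SMO 3, 4, 5, 7, 8 and 9, and 19, 37, 36, 1, 11 and 28 in LFPRLR SMO 3 to 8. Its exact *p* was 0.00216, the smallest that 924 arrangements can give, and its adjusted *p* was 0.250. ARGAY formed 0.0206% to 0.0650% of control translations (median 0.0388%) and 0.0449% to 0.406% of LFPRLR translations (median 0.0894%, exact *p* = 0.00433, adjusted *p* = 0.283). KRYDY was at 0% to 0.00685% in control libraries and at 0.00345% to 0.406% in LFPRLR libraries (exact *p* = 0.0152, adjusted *p* = 0.367). The highest LFPRLR value of all of them was in LFPRLR SMO 6, from 1 translation of AREDY and 2 each of ARGAY and KRYDY. None of these differences passed the adjusted threshold by the exact test. Among translations with at least 2 reads the exact *p* was 0.310 for AREDY, 0.132 for ARGAY and 0.0996 for KRYDY. With the paired libraries averaged, the difference for KRYDY fell from 0.0563 to 0.0124 percentage points (exact *p* = 0.0635). On reads, edgeR's adjusted *p* was 0.158 for AREDY, 0.500 for ARGAY and 0.0380 for KRYDY. The named ARGA and ARRPY were lower after LFPRLR SMO. ARGA had medians of 0.0167% in control and 0.000863% in LFPRLR libraries (exact *p* = 0.0281, adjusted *p* = 0.367). ARRPY had 0.00748% and 0.00205% (exact *p* = 0.0260, adjusted *p* = 0.367). ARSLGY, not among the named CDR3s, had the same exact *p* as AREDY and was lower, with medians of 0.00962% and 0%.

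Short CDR3s recurred across libraries more than the others. In each library, the percent of its distinct CDR3s that were also found in at least 1 other library was computed for short and for all other CDR3s. For short CDR3s it ran from 43.3% in Control SMO 3 to 90.9% in LFPRLR SMO 6, and for the others from 15.1% to 87.3% in the same 2 libraries. The short CDR3s were higher in 12 of 12 libraries, by 23.1 ± 7.40 percentage points (mean ± SD, n = 12), with an exact sign-flip permutation *p* of 0.000488, the smallest this design can give. When every library was drawn down to 493 translations the difference was 15.9 points (*p* = 0.000488), and with the paired libraries kept from vouching for each other it was 24.3 points over 9 averaged values (exact sign-flip *p* = 0.00391). Each library was counted against the other libraries, so the values of different libraries were not independent. The sign-flip test does not allow for this. The excess did not differ detectably between groups, with medians of 24.5 and 25.7 points (exact *p* = 0.699). Length chose these CDR3s, and fewer different sequences can be written with 3 to 6 residues, so the excess is tied to the length rule. A distinct short CDR3 also had a mean of 2.78 translations per library, against 1.85 for the others, which the draw to 493 translations did not match. The part of each was not tested.

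**Figure D2:**
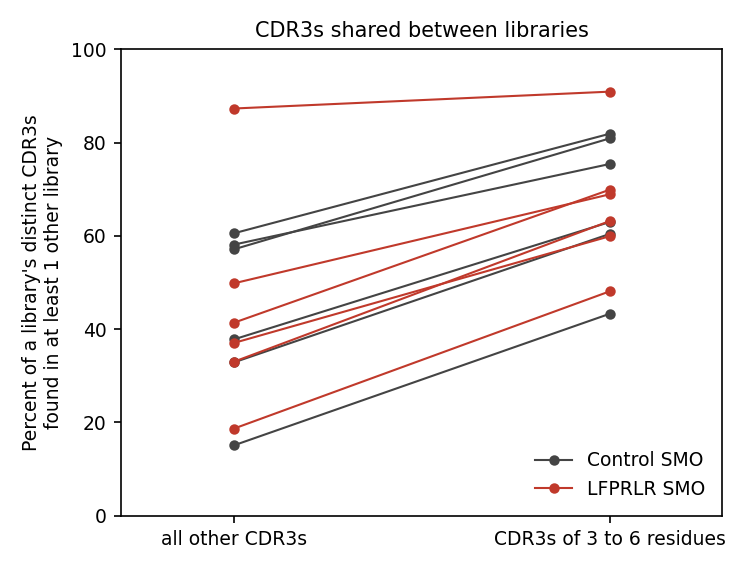
Percent of the distinct CDR3s of each library that were found in at least 1 other library (y axis), for all other CDR3s and for CDR3s of 3 to 6 residues, with a line joining the 2 values of each library (control SMO grey, LFPRLR SMO red). Every line rises towards the short CDR3s, and the nearly flat line at the top is LFPRLR SMO 6, at 87.3% and 90.9%.

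Counted over the whole series, 1005 of the 5399 short CDR3s (18.6%) were found in both groups, against 6.95% of the 210938 other CDR3s. The percent was 21.4% at 4 residues, 19.95% at 5 and 17.8% at 6. Most short CDR3s, 3590 or 66.5%, were seen in 1 library. At the other extreme, 40 were found in at least 11 libraries and 6 in all 12: TTGFAY, ARGAY, AREDY, ARGFAY, ARAMDY and ATDY. All 6 were present in LFPRLR SMO 6, the library with 493 located translations.

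Short CDR3s drew mainly on J2 and J3. J was read from the residues after the tryptophan, which lie outside the CDR3. In short CDR3s J2 made up a median of 47.8% in control and 46.7% in LFPRLR libraries, and in all other CDR3s 31.9% and 31.4%. J3 made up 34.0% and 36.4% of short CDR3s, against 27.98% and 29.02% of the others. J4, whose end encodes 5 residues (YAMDY), made up 15.7% and 12.8% of short CDR3s, against 30.3% and 29.8%. J1, whose end also encodes 5 residues (WYFDV), made up 2.49% and 3.58%, against 9.63% and 9.17%. Short and other CDR3s were not tested against each other for J, since the length of the J end is part of the length of the CDR3.

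Between groups, no J differed at an adjusted *p* under 0.05 in short CDR3s (0% of the 8 tests called, 12.5% at an unadjusted *p* under 0.05). J4 in short CDR3s had the smallest *p*. It ran from 13.6% to 18.4% in control libraries and from 10.6% to 14.8% in LFPRLR libraries, with no LFPRLR library above the highest control library and overlapping ranges. The medians differed by -2.94 percentage points (exact *p* = 0.0260, adjusted *p* = 0.208), and with each library left out in turn the exact *p* lay between 0.0173 and 0.0519 and stayed under 0.05 in 4 of 12 fits. Within set 1 the difference was -3.33 points and within set 2 it was -1.79 points. The unadjusted exact *p* was 0.180 for J1, 0.699 for J2 and 0.310 for J3.

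J use changed with length among the short CDR3s themselves. At 4 residues, with 2 to 219 translations per library, J2 was at a median of 54.9% over the 12 libraries, J3 at 20.6% and J4 at 20.4%. At 5 residues J2 was at 52.3%, J3 at 32.3% and J4 at 10.5%. At 6 residues J3 had risen to 37.8%, near J2 at 45.4%, and J4 was at 15.6%. J1 stayed at 2.11%, 2.48% and 2.93%. J2 and J3 also led just above the short CDR3s, at 42.3% and 37.2% at 7 residues, 46.6% and 32.4% at 8 and 43.4% and 31.6% at 9. At 12 residues the 4 segments lay closer, with J1 at 9.58%, J2 at 29.04%, J3 at 32.2% and J4 at 27.9%.

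**Figure D3:**
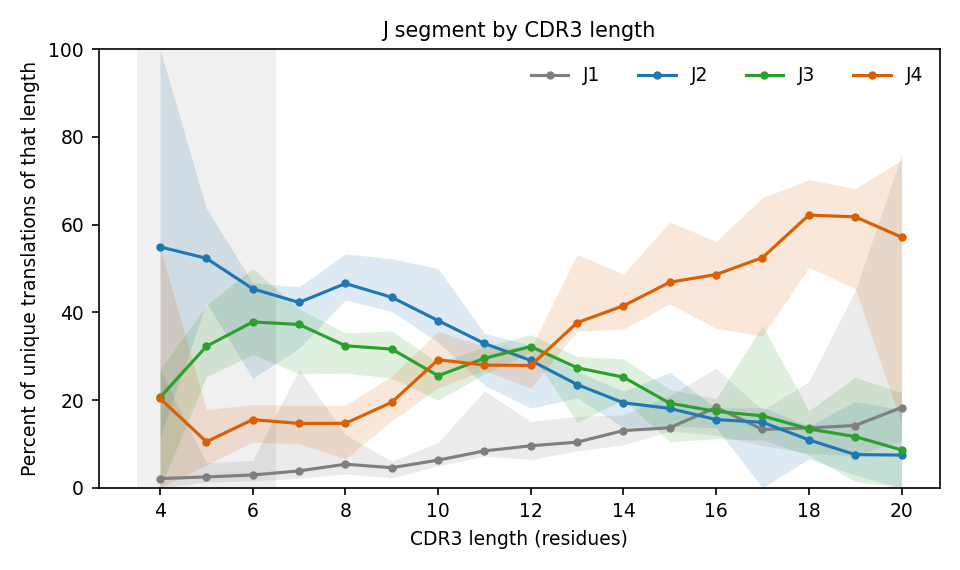
Percent of unique translations of each CDR3 length (x axis, residues) that carried J1, J2, J3 or J4 (y axis), as the median over libraries with a band from the lowest to the highest library, both groups together. Grey shading marks 4 to 6 residues. J2 led there, J3 and J4 were close at 4 residues (20.6% and 20.4%), and J2 and J3 led from 5 to 9 residues, with medians of 43.4% and 31.6% at 9 residues against 19.5% for J4.

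The bases of the short CDR3s were fewer in every class of match. Bases were counted in unique nucleotide sequences as matching the VH end, matching J or lying between, where D and added bases fall. The class between also took every base ahead of J in CDR3s that start with threonine or lysine. Threonine opened a median of 13.1% of short and 5.88% of other CDR3s, and lysine 4.24% and 1.45%. Their part in the counts was not tested. At 4 residues the mean number was 2.56 from VH, 4.74 between and 4.50 from J, as the median over libraries. At 5 residues it was 3.55, 6.29 and 5.09, and at 6 residues 3.67, 7.84 and 6.46. At 12 residues it was 5.11, 19.1 and 11.8. Sequences with no base at all between VH and J were a median of 4.25% at 4 residues, 1.72% at 5 and 1.28% at 6, and 0% from 9 residues upwards. Since length chose these sequences, the counts are a description with no test.

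**Figure D4:**
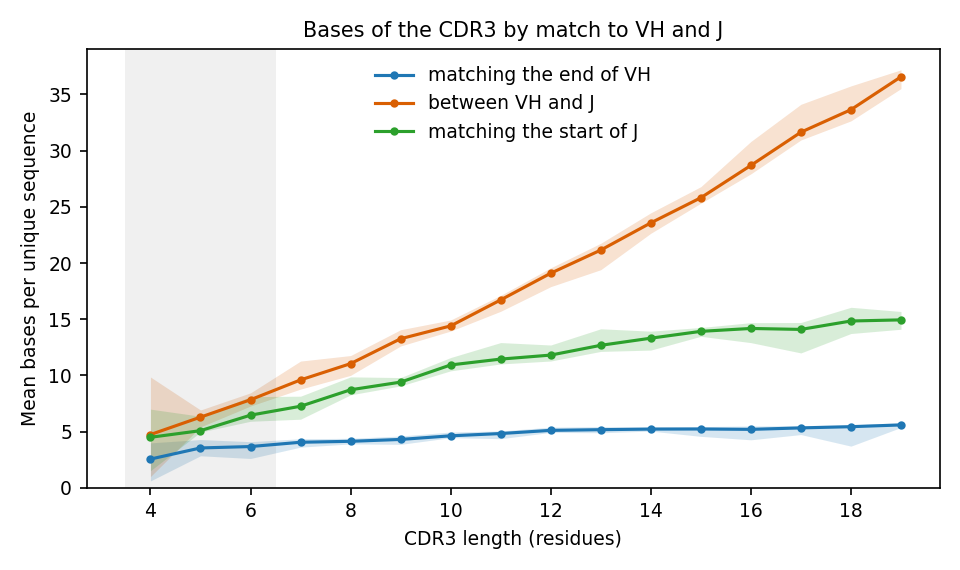
Mean number of CDR3 bases per unique nucleotide sequence (y axis) that matched the end of VH, matched the start of J or lay between them, by CDR3 length (x axis, residues), as the median over libraries with a band from the lowest to the highest library. Grey shading marks 4 to 6 residues, where the bases between rose from 4.74 to 7.84, against 19.1 at 12 residues.

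The J ends of short CDR3s lacked many of their bases, and since a CDR3 of at most 18 bases must drop more of a longer J, their order is a description of the length rule. In short CDR3s, J1 lacked a median of 13.3 of its 19 bases ahead of the tryptophan codon and J4 lacked 11.2 of 18, while J2 lacked 8.73 of 14 and J3 6.78 of 13. In CDR3s of 9 to 15 residues the same segments lacked 3.42, 3.69, 4.60 and 2.999 bases. A J3 CDR3 of 6 residues such as TTGFAY kept 11 of the 13 bases.

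Residues typical of D were looked for next. The 20 commonest runs of 3 residues in the middle of CDR3s of 9 to 15 residues, led by YDG, DGS and YYD, served as words for D. Since they were taken from that longer class, and since a word of 3 residues hardly fits ahead of J in a short CDR3, a lower share follows from the length rule. Ahead of the part that matched J, such a word stood in a median of 3.12% of short CDR3s over the 12 libraries (1.92% to 4.08%), against 53.3% of CDR3s of 9 to 15 residues (50.2% to 56.0%). It was 0% at 4 residues, 1.07% at 5 and 4.44% at 6, then 8.79% at 7 and 17.01% at 8. Counted anywhere in the CDR3, a word stood in 14.7% of short CDR3s, and the word most often found was GDY, in 1845 translations, whose last 2 residues are also the end of J2 and J4. YYD, a run of the tyrosine-rich reading frame, was found in 54 short translations. After the first 2 residues and those matching J were set aside, a mean of 1.92 residues remained in short CDR3s, against 6.26 at 9 to 15 residues, and none remained in 41.2% of CDR3s of 4 residues, 8.83% of those of 5 and 3.66% of those of 6.

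Several less common first residues took a larger share of short CDR3s than of the others, given as medians over libraries. AT opened 5.65% of short CDR3s and 1.71% of the others, TR 3.92% and 2.18%, TT 2.08% and 0.248%, and KR 1.92% and 1.03%. Threonine as the first residue was thus at 13.1% in short CDR3s and 5.88% in the others, and lysine at 4.24% and 1.45%. At the other end, DY closed 35.7% of short CDR3s and 57.6% of the others, and AY, from J3, closed 25.4% and 27.1%. GY closed 7.73% of short CDR3s against 1.98% of the others, and NY 2.20% against 0.552%.

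Alanine was the commonest residue of short CDR3s, followed by tyrosine, arginine, glycine and aspartate. Alanine, which both VH ends encode, made up a median of 18.8% of residues in control and 19.7% in LFPRLR libraries, above 14.3% and 14.4% in other CDR3s. Tyrosine, the residue most typical of D and J, made up 17.5% and 17.2%, below 21.9% and 21.4%. Arginine made up 12.7% in control libraries, against 9.57% of other CDR3s, and in short CDR3s the 2 groups gave an exact *p* of 0.699. Glycine was at 9.68% and 9.27% and aspartate at 8.99% and 8.64% of short CDR3s.

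None of the 20 amino acids in short CDR3s differed between groups at an adjusted *p* under 0.05, over 40 tests that also took in the other CDR3s (0% called). An unadjusted *p* under 0.05 was found in 12.5% of the 40 tests, and for 1 of the 20 amino acids in short CDR3s. Phenylalanine in short CDR3s had the smallest *p*. It ran from 3.31% to 4.13% in control libraries (median 3.47%) and from 3.53% to 6.03% in LFPRLR libraries (median 3.93%), the latter value from the 37 translations of LFPRLR SMO 6. The exact *p* was 0.0411 and the adjusted *p* 0.329. Valine followed, at 1.76% and 2.09% (exact *p* = 0.132, adjusted *p* = 0.587), and then aspartate, cysteine and methionine with the same exact *p* of 0.180.

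Reads per translation were close in short and other CDR3s. In control libraries a short translation had 2.82 to 4.40 reads on average, and in LFPRLR libraries 2.40 to 5.15, apart from 1.11 in LFPRLR SMO 6. The log2 ratio of mean reads, short over other, was 0.09 ± 0.23 (mean ± SD, n = 12) and above 0 in 8 of 12 libraries (exact sign-flip *p* = 0.226). Its lowest value was -0.41 in Control SMO 5 and its highest 0.40 in LFPRLR SMO 8. Without Control SMO 5 the mean was 0.13 (exact sign-flip *p* = 0.0420), the only 1 of 12 fits with a library left out that had a *p* under 0.05. The highest *p* of these fits was 0.405. With the 10 most-read translations of each library removed the mean was 0.21 (exact sign-flip *p* = 0.000977), and among translations with at least 2 reads it was -0.01 (exact sign-flip *p* = 0.942). The ratio did not differ detectably between groups (exact *p* = 0.485). Outside LFPRLR SMO 6, 55.9% to 65.0% of short translations had been read once, against 58.8% to 69.1% of the others.

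The VH residue ahead of the cysteine was also compared, because the rule allowed tyrosine or phenylalanine there. VH ended in YFC in 10.6% to 24.3% of short translations and in 13.3% to 23.0% of the others. The short CDR3s were lower in 9 of 12 libraries, by 1.12 ± 2.70 percentage points on average (short minus other -1.12, mean ± SD, n = 12, exact sign-flip *p* = 0.177). Control SMO 5 went furthest the other way, at 5.15 points, and without it the mean was -1.69 points (exact sign-flip *p* = 0.0166). This was the only 1 of 12 fits with a library left out that had a *p* under 0.05, and the highest was 0.343. Weighted by reads the difference was -0.985 points (exact sign-flip *p* = 0.655). Among translations with at least 2 reads the difference was -3.84 points (exact sign-flip *p* = 0.0303), with only 3 short translations left in LFPRLR SMO 6.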

How the data were processed

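For each of 12 libraries the authors deposited tables of unique nucleotide sequences and of unique translations, each with its read count, a whole number that is not normalized. How the MiSeq reads were merged, trimmed and filtered is not given in the sources used here. The LFPRLR SMO 5 tables sum to 171560 reads over translations and 167962 over nucleotide sequences.

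Python 3.11.15 was used with SciPy 1.17.1 and NumPy 2.4.6. A CDR3 ran from the cysteine of a YYC-like motif ending at residue 16 to 30 to the tryptophan of the last WGQGT-like motif. Joined rows of undetermined sequences and translations with a stop (2.76% to 3.76%) were left out. J was called from the residues after that motif. Members and lists were chosen with earlier results of these data known. Named CDR3s were the 5 with the highest mean share at each length, each library's most-read short CDR3 and any with an adjusted *p* under 0.05. All J segments were named, with the 5 commonest amino acids and the 3 with the smallest *p*.

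Groups were compared by exact two-sided Mann–Whitney *U* tests, and short with other CDR3s within libraries by exact sign-flip permutation, with Benjamini-Hochberg adjustment over every length, J, amino acid or CDR3 found in at least 6 libraries. The alternative on reads used edgeR 4.0.16 in R 4.3.3. CDR3 location, the exact test by length and edgeR were tried on simulated data: all 5000 simulated CDR3s were located, 82.5% of lengths shifted by 3 SD were called, and edgeR called 59 of 100 CDR3s changed by 4-fold and 96 of 100 changed by 8-fold among 1963. For edgeR the simulated libraries were drawn independently from common means with a single dispersion. They held no CDR3s shared by pairs of libraries or confined to a few, so these rates need not hold for the data. Mice are the replicates. Reads carry no molecular identifiers, so intervals cover counting error only.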

Additional observations from a re-analysis of the deposited data

Results flagged for a closer look

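Of 74 groups of 6 libraries checked, 8 had a highest or lowest library that stood apart from the other 5 by Dixon's criterion, which chance meets in about 1 of 20 groups. In 7 of the 8 the library was LFPRLR SMO 6, where 1 translation weighs 0.203%. ATDY and ARGAY were each at 0.406% of its translations (2 translations), against at most 0.0221% and 0.116% in the other LFPRLR libraries. ARGFAY, TGGFDY and ARRFAY were each at 0.203% (1 translation), against at most 0.0449%, 0.00596% and 0.0776%. Aspartate was at 10.1% and phenylalanine at 6.03% of the residues of its short CDR3s, against at most 8.70% and 4.17%. In the eighth, alanine was at 16.8% in LFPRLR SMO 5, below 19.1% in the next lowest LFPRLR library.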

How the results depend on the processing

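The share of short CDR3s stayed higher in LFPRLR libraries under all 16 alternatives of processing or test and with each library left out. Over the alternatives the difference ran from 0.223 percentage points, with at least 2 reads per translation, to 1.39 points, for 3 to 7 residues. With each library left out it ran from 0.655 to 1.21 points. Of all these fits, only that without LFPRLR SMO 8 had an exact p under 0.05. With at least 2 reads per translation, LFPRLR SMO 6 kept 3 short translations, and the reads ratio turned to -0.00619, the YFC difference was -3.84 points, 2 amino acids passed the adjusted threshold (aspartate and arginine, both in other CDR3s), and the difference at 5 residues turned to -0.230. Without the 10 most-read translations the reads ratio was 0.209. With libraries left out it ran from 0.0571 to 0.131, the YFC difference from -1.69 to -0.739, and the difference at 6 residues from -0.156 to 0.201. Single CDR3s called were 0 by the exact test (226 at an unadjusted p under 0.05) and 330 by edgeR. The cause of these changes was not tested. Depth limits LFPRLR SMO 6 above all.

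Replicate numbers were shared by 5 pairs of different mice, whose deviations correlated at 0.00846 to 0.0909, and 2 of 5 libraries correlated best with their own number. With the replicate block the share differed by 1.28 points (exact sign-flip p = 0.313) and the share of reads by 1.11 points (p = 0.125), where 5 pairs cannot give less than 0.0625. The block could thus not keep any unadjusted p under 0.05, and its differences were -3.59 points for J4 and 0.178 for 4 residues. Averaging the paired libraries gave -3.44 points for J4 (exact p = 0.0635) and 0.0754 for 4 residues (exact p = 0.111), and requiring 2 reads -2.16 (exact p = 0.180) and 0.0790 (exact p = 0.310). Of the alternatives, 2 were chosen after seeing the data: without the 4-residue family the share differed by 0.738 points, and over translations with fewer than 10 reads by 0.905 points.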
